A study of Mus musculus with 9 samples.

Results

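Germ pluripotent stem cells (gPS) were set against embryonic stem cells (ESC), with 3 gPS arrays and 2 ESC arrays taken out of the 9 mouse bead arrays of the series, and all 9488 genes tested were compared. The question was which differences from ESC all 3 gPS lines carried and which came from a single line. The gPS group held lines 1, 2 and 3, each a clonal line derived from adult germline stem cells, sorted by GFP fluorescence and measured on 1 array. The ESC group was measured on 2 arrays that the design calls a duplicate, and whether they held separate cultures is not given in the sources used here. The other 4 arrays came from 4 lines of germline stem cells (GSC), which the labels call unipotent. They entered the normalization, the probe filter, the choice of a probe per gene and the estimate of the spread. The gPS minus ESC difference itself was taken from the other arrays alone. No genotype, strain, age, culture time, or driver of the GFP is stated for any group, nor is the GSC line from which each gPS line came. A p-value here measures the spread between these arrays, and the spread between ESC arrays may be technical.

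Pluripotent cells of the mouse are held by a small circuit of transcription factors around Pou5f1, Sox2 and Nanog, which is fed by the cytokine LIF and opposed by FGF signalling through ERK. Lines with the same circuit can still differ, because cultures shift along the path from the naive inner cell mass towards the primed epiblast, because a few cells pass through a state with transcripts of the cleavage-stage embryo, and because each clone carries its own history of imprints, sex chromosomes and chromosome number. Germline stem cells of the adult testis already express Pou5f1 but keep a male germ cell programme with genes such as Dazl.

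The labelled cell types were checked first, on the normalized log2 signal of each array, as used for every level below. Nanog, a core pluripotency factor, stood at 10.35, 10.37 and 10.48 in gPS 1, gPS 2 and gPS 3 and at 10.42 and 10.58 on ESC 1 and ESC 2, and it was not detected in GSC. Pou5f1 (Oct4) stood at 12.36, 12.70 and 12.44 in gPS and at 12.31 and 12.18 in ESC. Dazl, an RNA-binding protein of germ cells, was not detected on any gPS or ESC array (4.61 to 5.10) and averaged 12.35 ± 0.23 in GSC (SD, n = 4). Between 9871 and 10650 of 25697 probes were detected on the gPS arrays and 9943 and 10193 on the ESC arrays, at a detection p under 0.01. Median signals before normalization lay between 83.6 and 86.6 on these 5 arrays.

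The gPS lines lay close to ESC, gPS 3 closest and gPS 1 furthest. Over the genes of an array, which are not replicates of each other, the correlation with the 2 ESC arrays was 0.951 and 0.960 for gPS 1, 0.959 and 0.964 for gPS 2 and 0.972 and 0.972 for gPS 3, against 0.987 between the ESC arrays. The SD over genes of the difference from the ESC mean was 0.61 for gPS 1, 0.57 for gPS 2 and 0.48 for gPS 3, and it was 0.34 between the ESC arrays. In 4414 genes (46.5%) all 3 lines lay within 0.5 of the ESC mean. A principal component analysis of the 5 arrays put 45.8% of the variance on a first axis that ran from gPS 1 (-31.5) over gPS 2 (-19.6) and gPS 3 (1.497) to ESC 2 (20.8) and ESC 1 (28.8). gPS 3 therefore lay between the other two lines and ESC on this axis.

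Of the 9488 genes, 98 passed an adjusted p of 0.05 (1.03%; limma fitted to all 9 arrays, Benjamini-Hochberg), 40 of them higher in gPS (0.422%) and 58 lower (0.611%). The balance between directions moved with the processing, to 45 higher and 29 lower with the authors' processed values and to 25 higher and 58 lower with no background correction. Their sizes ran from 0.90 to 4.51 on the log2 scale, and the 3 gPS arrays did not overlap the 2 ESC arrays in any of the 98. Groups did not overlap in 16.8% of all genes with gPS higher and in 15.8% with gPS lower, so that this separation alone is common on 5 arrays. Of the called genes, 22 had 30 further probes, and all 30 differed in the same direction, 22 of them by at least 0.5 times as much. The count rests on the spread shared with the GSC lines. It fell to 12 when only gPS and ESC were fitted and to 8 when the ESC arrays were averaged into 1, and it was 8 without ESC 1 and 10 without ESC 2. L1td1, Apex1, Dlgap5, Klhl13, Pmel and Rgcc were called both with only gPS and ESC fitted and with the ESC arrays averaged.

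**Figure D1:**
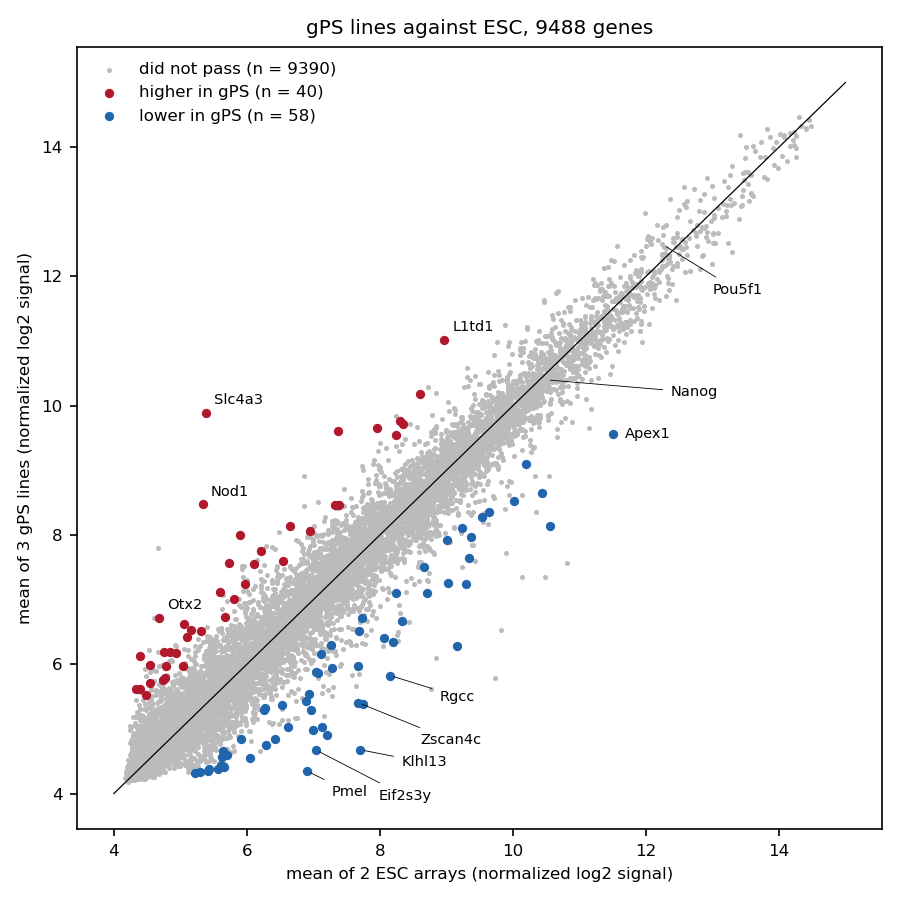
Mean normalized log2 signal of the 3 gPS lines (vertical axis) against that of the 2 ESC arrays (horizontal axis) for each of 9488 genes, with genes at an adjusted p under 0.05 in red (40 higher in gPS) and blue (58 lower) and the line of equality in black. Nanog and Pou5f1 lie close to the line, Slc4a3 and Nod1 far above it and Klhl13 and Pmel far below.

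The largest changes are given for genes with a gene name. Without one, or with only a clone-type name, were 4 falls (log2 -2.88, -2.42, -2.30 and -2.10) and 1 rise (1.49) that would otherwise rank among the 15 largest of their direction. The largest rise was in Slc4a3, which encodes an anion exchanger of excitable tissues. It stood at 11.14, 10.13 and 8.40 in gPS 1, gPS 2 and gPS 3 and at 5.40 and 5.36 in ESC, a 22.8-fold difference (log2 4.51, SE 0.61, adjusted p = 0.00902). The lowest line was still 3 log2 units above the higher ESC array, and 2 further probes of the gene differed by 4.51 and 2.89. Nod1, a cytosolic sensor of bacterial cell wall fragments, had the same order of lines, with 9.18, 8.66 and 7.59 in gPS against 5.41 and 5.27 in ESC (8.83-fold, log2 3.14, SE 0.37, adjusted p = 0.00439). Adam23, a cell surface protein of the nervous system, was at 8.56, 8.08 and 7.36 in gPS and at 5.93 and 5.87 in ESC (4.30-fold, adjusted p = 0.0129). In these 3 genes gPS 1 was highest and gPS 3 lowest.

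L1td1, which encodes an RNA-binding protein found in pluripotent cells, rose in all 3 lines by similar amounts. It stood at 11.10, 11.28 and 10.69 in gPS and at 8.94 and 8.99 in ESC (4.17-fold, log2 2.06, SE 0.20, adjusted p = 0.0013), and it was not detected in GSC. The gPS lines thus lay above ESC, not between ESC and GSC. Gpn2, a GTPase linked to RNA polymerase assembly, was at 9.83, 9.67 and 9.31 in gPS and 7.34 and 7.41 in ESC (4.69-fold, adjusted p = 0.00496). Its GSC mean of 9.60 ± 0.39 (SD, n = 4) fell within the range of the gPS lines.

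Otx2, a homeobox factor of the epiblast and the early brain, was detected on all 3 gPS arrays (7.34, 6.99 and 5.84) and on neither ESC array (4.73 and 4.64). It was at least 2.95-fold higher in gPS (adjusted p = 0.026), where such a bound sets each undetected array to the lowest signal detected on it, unless the gene itself read higher. Vrtn, a gene known for setting vertebral number in pigs, stood at 6.72, 6.94 and 6.20 in gPS and at 4.97 and 5.13 in ESC, at least 2.75-fold higher (adjusted p = 0.0128). Cgrrf1, which encodes a RING finger protein, was at 6.29, 6.33 and 5.78 in gPS and undetected in ESC (at least 1.97-fold higher, adjusted p = 0.0151), and it averaged 7.32 ± 0.38 in GSC (SD, n = 4). Otx2 and Vrtn were not detected in any GSC line.

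The remaining large rises were spread over unrelated functions. They were Pdrg1 (3.56-fold), a gene regulated by p53, Rab31 (3.27-fold), a GTPase of vesicle traffic, Acot1 (2.98-fold), an acyl-CoA thioesterase, Mcam (2.90-fold), the surface adhesion molecule CD146, Ccl27a (2.88-fold), a chemokine, Rps3a1 (2.76-fold), a ribosomal protein, and Tro (2.75-fold), the adhesion-related X-linked gene trophinin. Rps3a1 belongs to a family with many near-identical copies, so its probe may read more than 1 locus. Mcam was even among the lines, at 7.74, 7.66 and 7.85 in gPS against 6.36 and 6.08 in ESC. Its level in GSC was higher than in either (10.46 ± 0.33, SD, n = 4). Of the 40 genes called higher, 14 were detected on no ESC array. Over all genes, 92 (0.97%) were detected on every gPS array and no ESC array, and 59 (0.622%) on both ESC arrays and no gPS array.

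**Figure D2:**
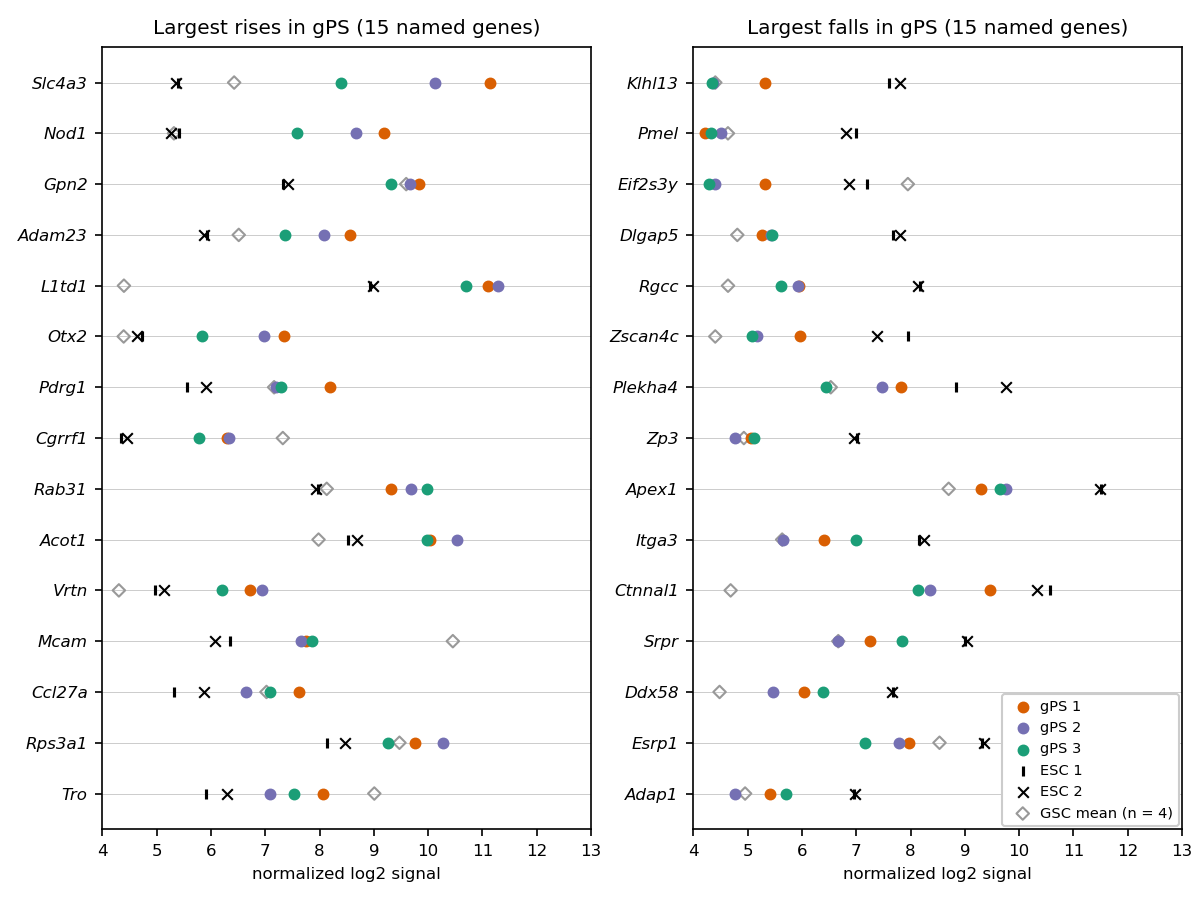
Normalized log2 signal (horizontal axis) of the 15 called genes with a gene name and the largest rises (left) and falls (right) in gPS, with 1 coloured dot per gPS line, black marks for the 2 ESC arrays and a grey diamond for the mean of the 4 GSC lines. No gPS dot overlaps the ESC marks, and Slc4a3 spreads from 8.40 to 11.14 among the gPS lines while Dlgap5 and Rgcc are even.

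Among the falls, Klhl13 was the largest. This X-linked gene encodes an adaptor of the CUL3 ubiquitin ligase, and it stood at 5.32, 4.37 and 4.34 in gPS against 7.60 and 7.80 in ESC. It was at least 5.74-fold lower in gPS (adjusted p = 0.0013) and was detected in gPS 1 only among the gPS and GSC lines. Pmel, a fibril protein of pigment granules, was detected on neither a gPS nor a GSC array, and read 4.21, 4.50 and 4.32 in gPS and 6.995 and 6.82 in ESC (at least 3.39-fold lower, adjusted p = 0.000593), with a second probe that differed by -1.87. Both genes were at background in most or all gPS and GSC lines and were clearly detected in ESC.

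Dlgap5, a spindle protein of mitosis, was at 5.27, 5.43 and 5.45 in gPS and 7.68 and 7.81 in ESC (5.13-fold lower, adjusted p = 0.0013). Rgcc, a regulator of the cell cycle and of the response to complement, was at 5.94, 5.93 and 5.61 against 8.17 and 8.14 (5.02-fold lower, adjusted p = 0.0013). Apex1, the main endonuclease of base excision repair, was at 9.30, 9.76 and 9.65 against 11.50 and 11.50 (3.81-fold lower, adjusted p = 0.0013), but its second probe differed by only -0.55. The gPS lines differed among themselves by less than 0.5 in each of these 3 genes, which all lie on chromosome 14. This chromosome held 10 of the 89 called genes with a known chromosome (11.2%) and 3.29% of the tested genes, and chromosome 4 also held 10, with 6.41% of the tested genes. Notch4, a Notch receptor of endothelium, showed the same evenness at 6.46, 6.82 and 6.73 against 8.37 and 8.28 (3.16-fold lower, adjusted p = 0.0074).

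Zscan4c belongs to a family of near-identical genes of the cleavage-stage embryo that are active in a small, changing share of embryonic stem cells. It read 5.96, 5.17 and 5.09 in gPS and 7.96 and 7.39 in ESC, at least 4.75-fold lower in gPS (log2 -2.27, SE 0.27, adjusted p = 0.00496). In bulk RNA, fewer cells of a kind and less RNA per cell cannot be told apart, and the probe may read several members of the family. Of 5 measured genes of the cleavage-stage state it was the 1 that passed, and the list's median was -0.50 against 0.02 over all genes. Zp3, a glycoprotein of the egg coat, was at 5.06, 4.76 and 5.12 in gPS and 7.02 and 6.97 in ESC (at least 3.51-fold lower, adjusted p = 0.0165).

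Eif2s3y, a translation factor gene on the Y chromosome, was detected on both ESC arrays (7.20 and 6.87) and in all 4 GSC lines (7.95 ± 0.28, SD, n = 4). In gPS it was detected on 1 array, with 5.32 in gPS 1, 4.40 in gPS 2 and 4.30 in gPS 3, and was at least 3.62-fold lower than in ESC (adjusted p = 0.00799). Of 5 tested Y-linked genes it was the 1 that passed. Kdm5d, a histone demethylase gene, was undetected on all 5 arrays of gPS and ESC (4.24 to 4.44) and could give no second reading. Uty, another demethylase gene, stood at 5.003, 5.05 and 5.22 in gPS and at 5.52 and 5.83 in ESC and did not pass (adjusted p = 0.196). In gPS 1 and gPS 2 it lay under the lowest signal detected on the array (5.21 and 5.22). Of the 5 Y-linked genes, 3 were undetected on all 5 gPS and ESC arrays, and the differences of the 5 ran from -2.36 to -0.02. Eif2s3x, the X-linked partner of Eif2s3y, read 9.76, 9.66 and 10.15 in gPS and 9.93 and 10.04 in ESC.

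The other large falls were Plekha4 (4.13-fold), a phosphoinositide-binding protein, Itga3 (3.61-fold), an integrin chain, Ctnnal1 (3.47-fold), a relative of alpha-catenin, Srpr (3.42-fold), the receptor that brings signal recognition particles to the endoplasmic reticulum, Ddx58 (3.26-fold), the viral RNA sensor RIG-I, Esrp1 (3.23-fold), a splicing factor of epithelial cells, and Adap1 (at least 2.87-fold), an ARF GTPase regulator. Itga3, Srpr and Ddx58 were lowest in gPS 2, while Plekha4, Ctnnal1 and Esrp1 were lowest in gPS 3. Of the 58 genes called lower, 24 were undetected on at least 1 gPS array and 15 on all 3. Xlr4a, an X-linked gene of the lymphocyte-regulated family, was undetected in gPS (4.75, 4.61 and 4.31), weak in ESC (6.14 and 5.94) and very high in GSC (12.01 ± 0.12, SD, n = 4). It was at least 1.86-fold lower in gPS than in ESC (adjusted p = 0.00799), the 1 gene of 16 X-linked germline and reproductive genes that passed. Of these 16 genes, 9 were undetected on all 5 gPS and ESC arrays.

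The promoters of 2 genes that rose and 2 that fell in all 3 lines are given to show the range among such genes, from few CG dinucleotides to many. Each is the 250 bases before the RefSeq start (build GRCm38.p6, printed in the direction of transcription), with CG dinucleotides, the sites of DNA methylation, in capitals. They lie at chr1:75546212-75546461 (plus strand) for Slc4a3, chr4:98726504-98726753 (plus) for L1td1, chr14:79301636-79301885 (minus) for Rgcc and chr7:11005495-11005744 (plus) for Zscan4c.
Slc4a3: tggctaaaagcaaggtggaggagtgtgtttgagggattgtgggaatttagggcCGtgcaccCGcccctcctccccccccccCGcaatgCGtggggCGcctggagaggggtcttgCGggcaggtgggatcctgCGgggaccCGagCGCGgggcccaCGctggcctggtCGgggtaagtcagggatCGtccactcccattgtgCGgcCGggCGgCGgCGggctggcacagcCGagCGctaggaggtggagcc
L1td1: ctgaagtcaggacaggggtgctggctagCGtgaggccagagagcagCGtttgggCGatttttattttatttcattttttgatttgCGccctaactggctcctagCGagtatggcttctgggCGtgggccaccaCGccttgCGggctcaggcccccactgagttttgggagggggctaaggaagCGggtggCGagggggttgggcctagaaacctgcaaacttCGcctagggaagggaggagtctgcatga
Rgcc: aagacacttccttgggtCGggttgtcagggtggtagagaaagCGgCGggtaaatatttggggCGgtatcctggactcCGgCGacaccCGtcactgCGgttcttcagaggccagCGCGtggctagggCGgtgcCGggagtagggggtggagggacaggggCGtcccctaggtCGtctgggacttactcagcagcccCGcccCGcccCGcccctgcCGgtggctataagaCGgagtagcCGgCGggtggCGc
Zscan4c: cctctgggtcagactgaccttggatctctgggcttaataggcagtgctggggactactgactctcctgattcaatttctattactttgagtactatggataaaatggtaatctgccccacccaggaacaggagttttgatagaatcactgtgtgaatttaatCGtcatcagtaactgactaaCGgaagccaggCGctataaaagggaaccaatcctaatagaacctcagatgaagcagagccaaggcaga
The windows of Slc4a3, L1td1, Rgcc and Zscan4c held 20, 11, 22 and 3 CG dinucleotides. Over the 7127 tested genes with a window the median was 16, over the 32 matched genes called higher it was 12.5, and over the 42 matched genes called lower it was 13. Windows with at most 3 such sites made up 7.13% of all, 14.3% of those called lower and 0% of those called higher. These are descriptions of the sequence, and no methylation was measured.

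A second count asked directly which differences all lines shared. In 81 genes (0.854%) every gPS line lay at least 1 log2 unit from the ESC mean on the same side and outside both ESC arrays, 38 above (0.401%) and 43 below (0.453%). Of these, 24 of the higher and 34 of the lower genes were also among the 98 called, which use the same values, and 23 did not pass. Grb10, a maternally expressed imprinted gene that restrains growth, was one of these, at 7.56, 7.70 and 7.53 in gPS and 9.49 and 9.36 in ESC (log2 -1.83, adjusted p = 0.0986). The gPS lines were nearly identical for Grb10, and the gene varied among the GSC lines that enter the spread (SD 0.91, n = 4). Mmp3, a matrix protease of stromal cells, was detected on all gPS arrays (7.05, 6.70 and 6.39) and on neither ESC array, with an SD of 1.90 over the 4 GSC lines (adjusted p = 0.318). Both genes passed when only gPS and ESC were fitted.

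Rhox5, an X-linked homeobox gene active in embryonic stem cells, was shared in direction but very unequal in size. It stood at 9.67 in gPS 1, 7.18 in gPS 2 and 5.87 in gPS 3, against 10.64 and 10.997 in ESC, so that gPS 1 lay nearest to ESC and gPS 3 furthest below it, and the combined comparison did not pass (log2 -3.24, SE 0.79, adjusted p = 0.0845). Set against ESC line by line, adjusted p was 0.052 for gPS 1, 0.00087 for gPS 2 and 0.00047 for gPS 3. Such line tests take 1 array as a group, assume that it varies like the GSC and ESC arrays, and share the ESC arrays with each other. Rhox5 was not detected in GSC.

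More genes differed from ESC in 1 line alone than in all 3. At least 1 from the ESC mean and outside both ESC arrays lay 818 genes in gPS 1, 656 in gPS 2 and 405 in gPS 3, and 1405 in any of the lines. In 387 genes (4.08%) a single line lay at least 1 from the ESC mean and outside both ESC arrays while the other two stayed within 0.5 of it. There were 210 for gPS 1 (2.21%), 103 for gPS 2 (1.09%) and 74 for gPS 3 (0.78%). None of them was among the 98 called genes, which largely follows from the rule. With the other lines held within 0.5 of ESC, the mean difference is limited and the spread among the gPS lines is wide. Genes in which another line lay more than 0.5 from ESC, without all 3 being 1 away, are in neither class. By direction the genes of 1 line were 91 above and 119 below ESC for gPS 1 (0.959% and 1.25%), 63 and 40 for gPS 2 (0.664% and 0.422%) and 29 and 45 for gPS 3 (0.306% and 0.474%). The 2 ESC arrays were at least 1 apart from each other in 123 genes (1.30%), a count with no condition on other arrays. Tested as a group of its own, gPS 1 differed from ESC in 368 genes (3.88%), 120 of them higher (1.26%) and 248 lower (2.61%). gPS 2 differed in 198 (2.09%), 87 higher (0.917%) and 111 lower (1.17%), and gPS 3 in 76 (0.801%), 20 higher (0.211%) and 56 lower (0.59%). These counts move several-fold with the samples fitted and the ESC array left out, and their ranges are given with the alternatives.

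**Figure D3:**
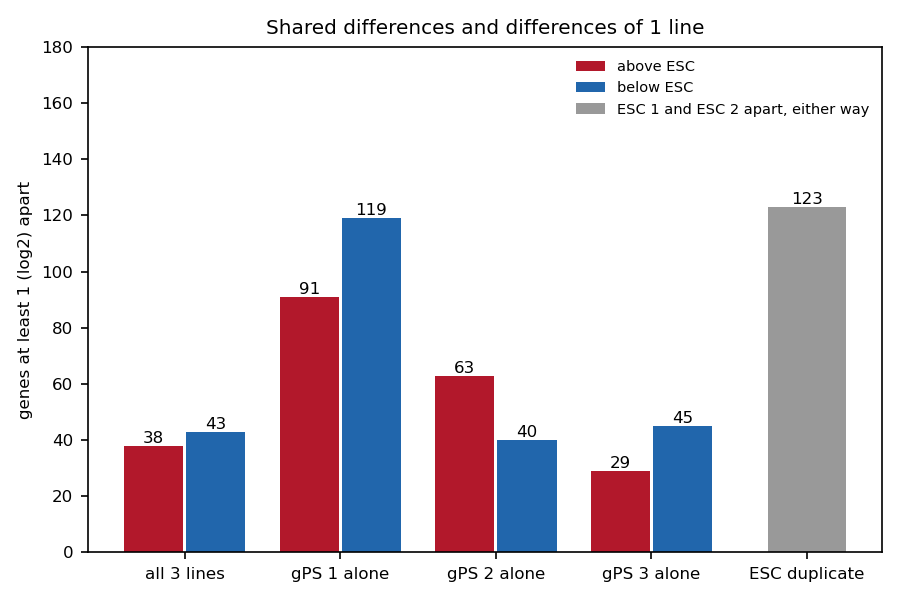
Number of genes (vertical axis) at least 1 log2 unit above (red) or below (blue) the ESC mean in all 3 gPS lines or in 1 line alone, with the genes at least 1 apart between the 2 ESC arrays in grey. gPS 1 alone accounts for 91 genes above and 119 below, against 38 and 43 shared by all 3 lines.

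In gPS 1 alone, the simple-epithelium keratins Krt8 and Krt18, which pair into 1 filament, were both high. Krt8 stood at 9.33 in gPS 1 and at 7.53 and 7.30 in gPS 2 and gPS 3, with 7.39 and 7.31 in ESC, and its line test gave an adjusted p of 0.0046 in gPS 1 (limma). Krt18 stood at 7.57 in gPS 1 and between 5.46 and 5.61 on the other 4 arrays (adjusted p = 0.0066). Both keratins were well above every other gPS and ESC array. Auts2 (6.64 against 4.70 to 5.02 on the other 4 arrays), Igsf9 (9.86 against 8.34 to 8.74) and Ptpn14 (7.39 against 5.63 to 6.27) were the next genes that were high in gPS 1 alone. A second probe of Auts2 differed by only 0.16 between the group means, where the probe used differed by 0.73.

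Fgf4, the growth factor with which pluripotent cells signal to themselves, was low in gPS 1 alone, at 5.51 against 8.03 and 8.48 in gPS 2 and gPS 3 and 8.73 and 8.21 in ESC (adjusted p = 0.0026). Calr, a chaperone of the endoplasmic reticulum, was at 8.03 in gPS 1 and between 10.39 and 10.75 on the other 4 arrays (adjusted p = 0.003). Mcm7, a subunit of the replicative helicase, was at 6.95 against 8.89 to 9.45 (adjusted p = 0.0069). Further genes low in gPS 1 alone were Atad2, a chromatin factor of dividing cells, at 4.75 and undetected there (6.82 to 7.33 elsewhere), and Slc25a36, a mitochondrial carrier, at 6.47 (8.68 to 9.48 elsewhere).

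gPS 2 alone was high in Mycbp2, a large ubiquitin ligase, at 9.83 against 6.62 and 6.55 in the other lines and 7.11 and 6.81 in ESC (adjusted p = 0.0015 in its line test). A second probe of Mycbp2 differed by only 0.20 between the group means, where the probe used differed by 0.70. Gpx2, a glutathione peroxidase, stood at 9.26 in gPS 2 and between 6.68 and 6.88 on the other 4 arrays (adjusted p = 0.033). Bora, a cofactor of mitotic kinases, stood at 10.003 against 7.79 to 8.21 (adjusted p = 0.0075), and Sox7, a transcription factor of endoderm and endothelium, was at 6.62 against 4.71 to 5.22 (adjusted p = 0.007). C2, a complement component, was at 6.70 against 4.31 to 5.04 and did not pass in its line test (adjusted p = 0.084). Low in gPS 2 alone were Bcat1 (9.74 against 11.27 to 11.34), an enzyme of branched amino acids, and Ddr1 (5.58 against 6.76 to 7.58), a collagen receptor. So were Hspb8 (5.27 against 6.74 to 7.28), a small heat shock protein, Arih2 (8.03 against 9.14 to 9.68) and Prph (undetected at 4.41 against 5.78 to 6.33), a neuronal filament. A second probe of Ddr1 differed by only -0.18 between the group means, where the probe used differed by -0.59. Further probes of Bcat1 differed by -0.64, where the probe used differed by -0.50.

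gPS 3, the line nearest to ESC, had the fewest differences of its own. Gab1, a docking protein of growth factor receptors, was at 8.80 in gPS 3 and between 11.38 and 11.67 on the other 4 arrays (adjusted p = 0.013 in its line test). Slc40a1, the cellular iron exporter, was at 6.37 against 8.28 to 8.58 (adjusted p = 0.048). Cerk (undetected at 4.82 against 6.16 to 6.54, with a second probe that differed by 0.20 between the group means where the probe used differed by -0.41), Tfpi (5.30 against 6.70 to 6.99) and Wwc2 (8.07 against 9.19 to 9.68) were also low in gPS 3 alone. High in gPS 3 alone were Fjx1, at 7.24 against 5.33 to 5.90 (adjusted p = 0.048), and, without passing in the line test, Egr4 (6.76 against 4.34 to 4.78), Notum (7.81 against 6.11 to 6.55), Slc47a1 (7.32 against 5.64 to 6.11) and Erdr1 (10.43 against 8.25 to 9.50). Egr4, a zinc finger factor of neurons and germ cells, averaged 11.21 in GSC. Erdr1 differed by over 1 between the 2 ESC arrays themselves.

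The lines also differed by chromosome. Over all 9488 genes the median difference from the ESC mean was 0.04 in gPS 1, -0.01 in gPS 2 and 0.00 in gPS 3, and between the ESC arrays the chromosome medians stayed between -0.03 and 0.07, leaving out the Y chromosome. In gPS 2 the medians were 0.22 over the 288 tested genes of chromosome 14, 0.22 over the 425 of chromosome 6 and 0.18 over the 480 of chromosome 8. In gPS 1 they were 0.22 over the 401 genes of chromosome 1 and 0.14 over the 440 of chromosome 17. In gPS 3 they were -0.25 over the 419 genes of chromosome 10, -0.18 over the 410 of chromosome 3 and -0.15 over the 440 of chromosome 17. Each shift stood in 1 line, and chromosome 17 was up in gPS 1 and down in gPS 3. They kept their sign under each of 9 other settings of background, scaling, filter, probes and ESC array, at between 0.04 and 0.30 for chromosome 14 in gPS 2, between 0.03 and 0.33 for chromosome 1 in gPS 1 and between -0.32 and -0.09 for chromosome 10 in gPS 3.

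Chromosome 14 held 19 of the 103 genes displaced in gPS 2 alone, while it held 3.29% of the tested genes with a known chromosome. When its 288 genes were divided by gene order into 3 equal parts, a split chosen after the values were seen, the median in gPS 2 was 0.15, 0.09 and 0.48. The last part, from Sox7 to Itgbl1, held 15 of the 17 genes of the chromosome that were high in gPS 2 alone. In gPS 2, 75% of its 96 genes lay above the ESC mean. This share was 65.6% in the first part, 59.4% in the second and 49.4% over all genes. Bora, Mycbp2 and Sox7, named above, lie in the last part. In gPS 1 and gPS 3 the same 96 genes had medians of -0.07 and 0.12. No copy number was measured here.

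**Figure D4:**
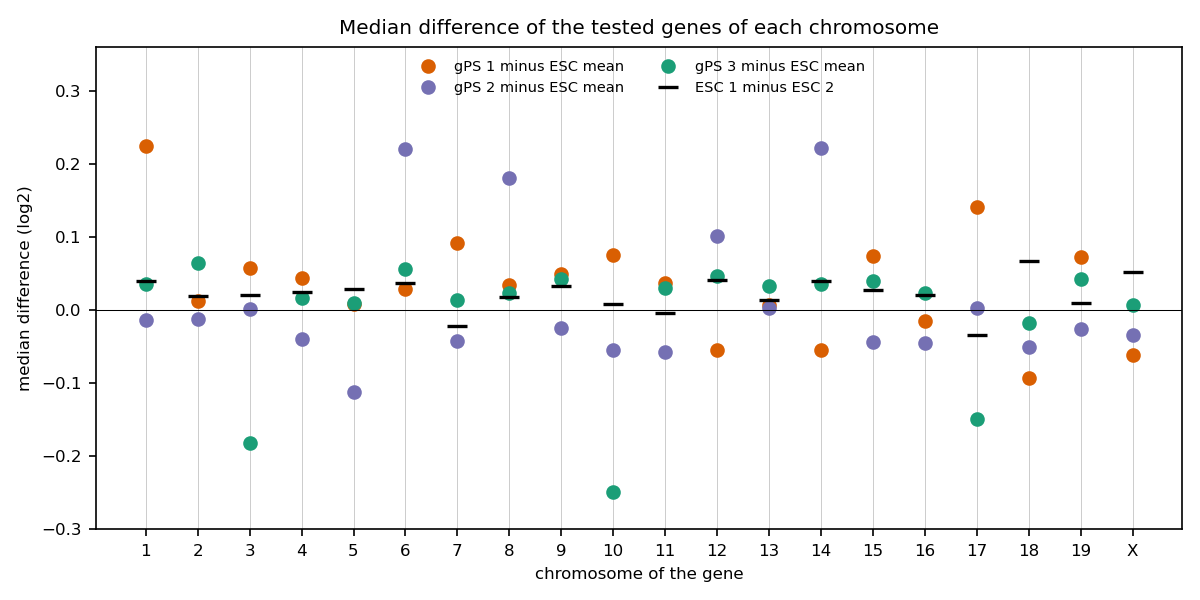
Median over the tested genes of each chromosome (horizontal axis) of the log2 difference of each gPS line from the ESC mean (coloured dots, vertical axis), with the median difference between the 2 ESC arrays as black bars. gPS 2 stands out on chromosomes 6, 8 and 14, gPS 1 on chromosomes 1 and 17, and gPS 3 on chromosomes 3, 10 and 17.

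Gene lists were then read against the 1.03% of all genes called. None of 18 pluripotency transcription factors passed, and their median was -0.26 (gPS 1 -0.30, gPS 2 -0.33, gPS 3 -0.03). Sox2, a core factor, stood at 7.77 in gPS 1, 8.81 in gPS 2 and 9.27 in gPS 3 against 9.55 and 9.23 in ESC (log2 -0.77, SE 0.65, adjusted p = 0.631), so that gPS 3 lay between the ESC arrays and gPS 1 lay below. Klf4, a naive state factor, was at 8.18, 6.81 and 9.26 in gPS and 8.62 and 8.66 in ESC, lowest in gPS 2. Esrrb (11.39, 11.29 and 11.93 against 11.98 and 11.97) and Zfp42 (8.78, 8.58 and 8.78 against 9.60 and 8.79) did not pass either, nor did Myc at 6.47, 6.36 and 6.59 against 6.01 and 5.65 (adjusted p = 0.133).

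Of 27 genes associated with embryonic stem cells, Nanog among them, 2 rose, L1td1 and Otx2, and 25 did not pass (median -0.10). By line, the medians were -0.07 in gPS 1, -0.09 in gPS 2 and -0.01 in gPS 3. Dppa3, a maternal factor that is variable among embryonic stem cells, split the lines, with 10.59 and 10.10 in gPS 1 and gPS 2, 7.39 in gPS 3 and 9.43 and 9.60 in ESC. Lin28a, an RNA-binding protein, stood at 9.97, 9.72 and 9.39 against 9.49 and 9.20, with a second probe that differed the other way (-0.53). Of 13 primed epiblast genes, Otx2 rose and 12 did not pass, with medians of 0.43, 0.39 and 0.37 in the 3 lines. Otx2 was also the 1 of 17 neural ectoderm genes that passed.

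No germ cell identity gene passed as higher in gPS, and of the 21 tested 2 fell. Of these 21 genes, 12 were undetected on all 5 gPS and ESC arrays, so the lack of calls among them says little. D1Pas1, a testis RNA helicase, was at 6.05, 5.68 and 5.90 against 7.06 and 7.02 (2.24-fold lower, adjusted p = 0.0167). Tdrd12, a Tudor protein of the piRNA pathway, was at 9.10, 7.87 and 8.60 against 10.11 and 9.92 (2.81-fold lower, adjusted p = 0.0459). Both genes also read lower in GSC than in ESC, with GSC means of 6.23 for D1Pas1 and 8.93 for Tdrd12. Of 23 genes of undifferentiated spermatogonia Mcam was the 1 that rose, and it was also the 1 called among 21 adhesion and surface genes. None of 11 genes of differentiating spermatogonia and meiosis passed, of which 5 were undetected on all 5 gPS and ESC arrays. Ddx4 (Vasa), a germ cell helicase, read 4.25, 4.79 and 5.73 in gPS and 5.45 and 5.35 in ESC, and Stra8, a switch of meiosis, was undetected on all 5 arrays.

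Imprinted genes were compared because germline cells of the testis carry paternal marks. None of 14 genes expressed from the paternal allele passed (median 0.22), and none of 15 expressed from the maternal allele (median 0.05). Snrpn stood at 12.08, 11.75 and 11.79 in gPS and 11.27 and 11.27 in ESC (log2 0.60, adjusted p = 0.229), Igf2 at 9.74, 10.07 and 9.62 against 9.93 and 9.59, and Peg3 at 6.76, 6.37 and 6.99 against 6.56 and 6.36. Igf2r, from the maternal allele, was at 8.21, 8.26 and 7.57 against 7.69 and 7.66, and its second probe differed by -0.14. Phlda2, a maternally expressed growth restrainer of the placenta, was at 7.72 and 7.84 in gPS 1 and gPS 2, 9.50 in gPS 3 and 10.22 and 10.48 in ESC, which did not pass over the 3 lines (log2 -1.997, adjusted p = 0.0644). In the line tests Phlda2 passed in gPS 1 and gPS 2 (adjusted p = 0.00407 and 0.00447) and not in gPS 3 (adjusted p = 0.245). H19, Meg3, Rian and Mirg were not analysed here.

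Markers of other cell types were read for the same arrays. None of 29 fibroblast and feeder genes passed, with a median of 0.05 (0.23, 0.05 and -0.25 in the 3 lines), and their mean level was 7.58, 7.34 and 7.07 in gPS and 7.21 and 7.10 in ESC. Of these 29 genes, 21 were detected on all 5 arrays and 3 on none of them. Matrix genes of stromal cells were detected in both groups, for example Sparc at 9.60, 9.43 and 9.28 in gPS and 9.15 and 9.25 in ESC. Pdgfra, a receptor of mesenchymal cells, was at background in both groups. Mmp3 of this list, described above, was detected on all 3 gPS arrays and no ESC array, at least 1.78 above the ESC mean in each line. None passed among 16 genes of primitive endoderm and endoderm (median 0.06), 16 of trophoblast (median -0.19), 11 of mesoderm (median -0.10), 9 of Sertoli and Leydig cells (median 0.05) or 7 of blood and immune cells (median -0.22). Line by line, the medians of the 16 trophoblast genes were -0.24 in gPS 1, -0.07 in gPS 2 and -0.59 in gPS 3. The share of stromal RNA in any difference above was not tested.

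Metabolic and stress lists held few calls. Of 25 genes of MHC class I and the interferon response, Ddx58 fell and none rose. Of 25 cell cycle genes, the probe of Pcna, the sliding clamp of replication, fell (5.48, 5.25 and 5.15 against 6.42 and 6.10, adjusted p = 0.0413). This probe was weak, near the lowest signals detected on the gPS arrays (5.21, 5.22 and 4.996), and undetected in GSC (mean 4.65). None of 34 oxidative phosphorylation genes passed, with a median of 0.44, and the mean level of the list was 10.2, 10.2 and 9.88 in gPS but 9.43 on ESC 1 and 9.97 on ESC 2. The ESC arrays thus lay further apart in this list than ESC 2 lay from any gPS line. None of 13 immediate-early genes passed at a median of 0.64 (0.51, 1.05 and 0.15 in the 3 lines), and none of 14 hypoxia response genes at a median of 0.45, with gPS 1 at -0.20 and gPS 2 and gPS 3 at 0.60 and 0.73.

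No member passed in the lists of glycolysis (23 genes), cholesterol synthesis (17), p53 targets (25), heat shock proteins (14), amino acid and unfolded protein stress (21), antioxidants (22), DNA methylation machinery (10), Polycomb group (22), the WNT (28) and FGF (19) pathways, the LIF, BMP and Nodal response (30), X-linked dosage genes (6), Hox genes (13), the Dlk1-Dio3 cluster (2) and reference genes (11). Their medians over the gPS group lay between -0.34 and 0.39. By line, the medians reached -0.44 for X-linked dosage genes in gPS 1 and 0.44 for p53 targets in gPS 3. The 6 X-linked dosage genes had medians of -0.23 in gPS 2 and 0.06 in gPS 3. A p above the threshold does not show that levels were equal, and 5 arrays limit how precisely any level is known.

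**Figure D5:**
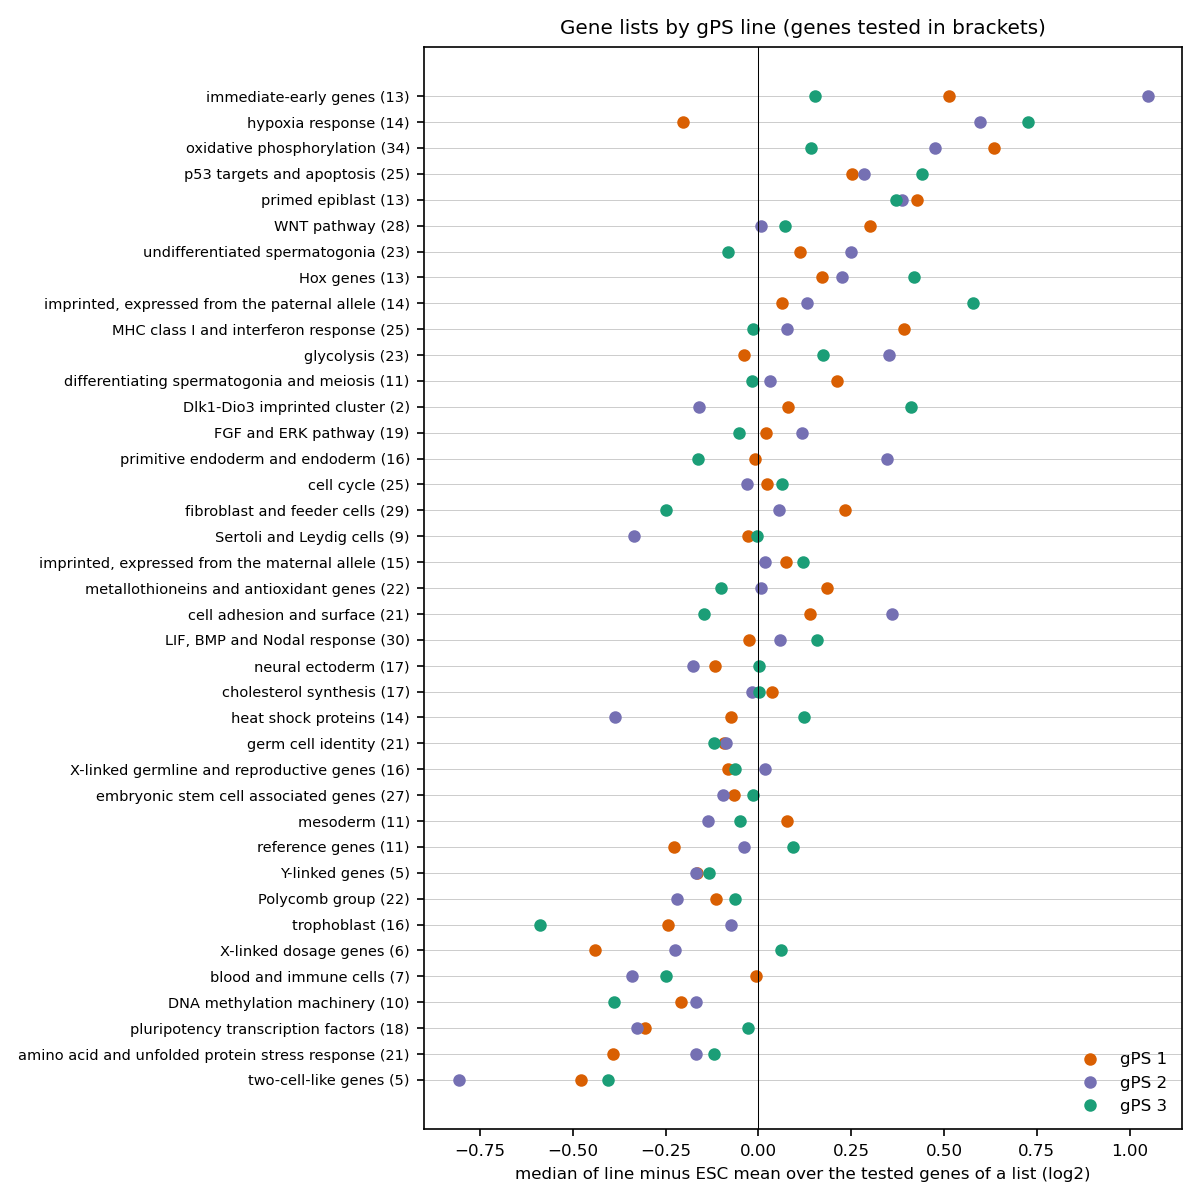
Median over the tested genes of each of 39 lists (vertical axis, number of genes in brackets) of the log2 difference between a gPS line and the ESC mean (horizontal axis, 1 coloured dot per line). Immediate-early genes reach 1.05 in gPS 2, genes of the cleavage-stage state ("two-cell-like") lie below 0 in all 3 lines, and pluripotency transcription factors lie between -0.33 and -0.03.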

How the data were processed

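Per the labels' protocols, biotin-labelled cRNA was made from total RNA, and 1 bead array was read per sample. The deposited values are a signal intensity per probe, summarised from beads and not normalized between arrays, and a detection p-value per probe against the array's negative controls, per the file headers. BeadStudio 3.2, RMA and lumi are named in the submitters' processing notes. The authors' processed values, deposited as a second table, are on a log scale taken as log2 from their maximum, since the base is not stated. They served as an alternative.

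The intensities were background-corrected, quantile-normalized and log2-transformed (neqc, offset 16, limma 3.58.1, R 4.3.3). A probe was kept where its detection p was under 0.01 on 2 or more of the 9 arrays (12695 of 25697), and the probe with the highest mean stood for a gene, which gave 9488 genes, 738 of them unnamed. Symbols came from the platform table, updated through RefSeq (23978 probes had 1 symbol, 1719 none). The 9 arrays were fitted together by group, and the gPS minus ESC contrast was tested (Benjamini-Hochberg, adjusted p under 0.05), and each gPS line was tested as a group of its own. A gene shared by all lines lies at least 1 from the ESC mean on 1 side in all 3, outside both ESC arrays. A gene of 1 line lies so in that line, with the others within 0.5.

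The genes named are the 15 largest rises and falls among called genes with 1 symbol, no clone-type name and groups that do not overlap, the shared genes and genes of 1 line with the largest differences, up to 2 per list and direction, and a set always reported. Genes chosen after their values were seen are said to be so. The comparison, the 39 lists (939 genes, 586 tested) and these rules were chosen with earlier results of these data known. Tested on simulated data over 9488 genes, the gPS against ESC test recovered 40% of changes of 1 and 88.2% of changes of 2, with 4.90% false calls. Alternatives covered background, scaling, filter, probes, samples fitted, each array left out and the size threshold. For arrays, their number limits the precision.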

Additional observations from a re-analysis of the deposited data

Results flagged for a closer look

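In 6 named genes 1 gPS line lay at least 1 above the ESC mean and another at least 1 below it, and the difference between these lines passed the test (limma, each line as its own group, adjusted over all genes). They were chosen by this opposition after the values were seen, except Bmp4, which its list had named. A line has 1 array here, so that its own spread was not measured. In each gene the pair tested was its highest and its lowest line, a choice that the adjustment over genes does not cover. The p-values given below therefore add no support for the opposition.

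Bmp4, a signal that maintains pluripotency with LIF, stood at 7.33 in gPS 1, 10.98 in gPS 2 and 8.71 in gPS 3 against 8.54 and 8.31 in ESC, and gPS 2 exceeded gPS 1 by 3.64 (adjusted p = 0.0467). Bmp4 lies on chromosome 14. Hal, the enzyme that breaks down histidine, was at 6.92 in gPS 1, undetected at 4.30 in gPS 2 and at 8.08 in gPS 3, with 6.67 and 6.94 in ESC, and gPS 3 exceeded gPS 2 by 3.78 (adjusted p = 0.00151). Serpinb6c, a protease inhibitor, was undetected at 4.47 in gPS 1 and at 7.53 in gPS 2, with 6.40 and 6.26 in ESC (gPS 2 over gPS 1 3.07, adjusted p = 0.00345).

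Bhlhe40, a transcription factor of the clock and of hypoxia, was higher in gPS 2 than in gPS 1 by 3.06 (10.10 against 7.04, adjusted p = 0.0292). Etv1, an ETS factor downstream of FGF, was higher in gPS 3 than in gPS 1 by 2.55 (7.07 against 4.53, adjusted p = 0.0107). Pmaip1 (Noxa), a p53 target, was higher in gPS 3 than in gPS 1 by 2.61 (7.58 against 4.97, adjusted p = 0.0324). gPS 1 was the lowest of the 3 lines in 5 of the 6 genes. Dppa3 and Rhox9 ran the other way from Etv1 and Pmaip1, with gPS 1 highest and gPS 3 lowest. They met the same size rule, but the difference between these lines did not pass.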

How the results depend on the processing

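All 98 called genes kept their direction under each alternative in which they were tested. In many alternatives this was fixed in advance. The groups do not overlap in these genes, so leaving out a gPS or ESC array could not reverse a difference. Leaving out GSC arrays, fitting only gPS and ESC, averaging the ESC arrays, an intensity trend or another size threshold leaves the difference itself unchanged. Of the 136 named genes, 30 that did not pass changed sign under at least 1 alternative without passing, among them Dppa3 (-0.77 to 0.83), Bmp4 (-0.40 to 1.42), Klf4 (-1.15 to 0.07) and Erdr1 (-0.37 to 0.90). The number of calls was 36 with median scaling, 37 on probes detected on all 9 arrays (where 41 of the 98 were tested), 12 with only gPS and ESC fitted and 8 with the ESC arrays averaged. Leaving out 1 array gave 8 (without ESC 1) to 159 (without gPS 3), and leaving out GSC 1 and GSC 3 together, which was chosen after seeing the data, gave 33. It stayed between 74 and 110 with no background correction, an offset of 50, the authors' values, no filter, averaged probes, an intensity trend or a 2-fold minimum. The share called higher was 40.8%, and it was 60.8% with the authors' values, 51.4% on probes detected on all 9 arrays and 30.1% with no background correction. The cause of these moves was not tested, beyond the smaller number of genes or arrays that some settings use.

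The 81 shared genes became 25 with no background correction, 35 with an offset of 50 and 281 with the authors' values. They became 39 on probes detected on all 9 arrays, 420 at 1.5-fold and 8 at 4-fold. With 1 GSC or ESC array left out there were 81 to 146. Without gPS 1, gPS 2 or gPS 3 there were 168, 130 and 248, but then only the remaining lines had to meet the rule. The 387 genes of 1 line became 133, 194 and 228 with no background correction, an offset of 50 and detection on all 9 arrays. They became 1955 at 1.5-fold and 21 at 4-fold. With 1 GSC or ESC array left out there were 347 to 387. Without gPS 1, gPS 2 or gPS 3 there were 370, 587 and 507, but then only the remaining line had to stay within 0.5.

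The line tests of gPS 1, gPS 2 and gPS 3 gave 204, 92 and 31 genes with median scaling, 203, 60 and 10 on probes detected on all 9 arrays, 33, 34 and 6 with the ESC arrays averaged, and 200, 100 and 21 without GSC 1 and GSC 3. With only gPS and ESC fitted, gPS 1 gave 687 and gPS 2 456, and with the authors' values 245 and 129. gPS 3 gave 44 with an intensity trend and 136 with no filter. With 1 array left out they ranged from 28 to 826, from 36 to 576 and from 7 to 195, lowest without an ESC array and highest without GSC 4.

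The replicate numbers gave no pairing. Deviations from the group means of same-numbered arrays correlated at -0.17 for gPS 1 with ESC 1 and 0.02 for gPS 2 with ESC 2, and at 0.08, -0.07 and -0.16 for gPS with GSC. With the replicate number as a block the calls came to 20, and the line tests to 653, 387 and 21.

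Signal over background limits the falls: 24 of the 58 genes called lower were undetected on at least 1 gPS array, so their sizes are bounds.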
